A study of Mus musculus with 10 samples.

Results

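Hemidesmosomes are the junctions that rivet basal keratinocytes to the epidermal basement membrane, and 9 genes that encode their parts and the anchoring structures beneath them (Itga6, Itgb4, Col17a1, Cd151, Dst, Plec, Lama3, Lamb3 and Col7a1) were followed in mouse skin. They were chosen by name from 20611 genes listed in the deposited tables. All 9 passed the filter on low counts and were among the 14861 genes tested. Gene expression had been measured by polyA-selected mRNA sequencing in 10 mice with 1 library each. Klk6+ mice (5 libraries) carried both a Tetos-Klk6 transgene, which encodes Myc/His-tagged mouse kallikrein-related peptidase 6 (a secreted serine protease), and the K5-tTA driver, a transactivator under a bovine keratin 5 promoter. That promoter is active in epidermal keratinocytes and in some other stratified squamous epithelia, and the transactivator works when doxycycline is absent. WT mice (5 libraries) were littermates with no transgene or with only 1 of them, not expressed, and the labels do not say which mouse carried which. Both lines had been backcrossed to C57BL/6. Klk6+ mice were bred under doxycycline and got doxycycline chow again at 10 to 11 weeks, and skin was taken at 14 to 16 weeks of age, per the labels' protocols. That protocol is attached to all 10 libraries but speaks of Klk6+ mice, so whether WT mice got the chow is unclear. How long the transgene had been on or off at collection is unclear as well, since doxycycline turns it off and Klk6 counts were still high. Each genotype had 3 males (replicates 1 to 3) and 2 females (replicates 4 and 5).

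In a hemidesmosome, integrin α6β4 and the transmembrane collagen XVII bind laminin outside the basal cell, while plectin and the epithelial form of dystonin tie them to keratin filaments inside it. The laminin that holds the α3 and β3 chains forms the anchoring filaments, and collagen VII forms the fibrils that hold the basement membrane to the dermis. Inherited loss of these proteins causes forms of epidermolysis bullosa, in which skin blisters after slight friction, and collagen XVII and dystonin are the antigens of bullous pemphigoid.

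Klk6 itself averaged 12603 ± 1944 CPM (counts scaled to the library size; SD, n = 5) in Klk6+ skin and 18.2 ± 5.17 CPM in WT skin (SD, n = 5), a log2 fold change of 9.45 ± 0.22 (SE; edgeR adjusted p = 5.57e-09). Total counts ran from 26521019 to 39796511 in Klk6+ libraries and from 32798416 to 41970272 in WT libraries. As a check of the labelled tissue, Krt5, the keratin of basal keratinocytes, was at 3926 to 6236 CPM in Klk6+ libraries and 1288 to 3502 CPM in WT libraries. Genotype moved a large share of the transcriptome: 72.8% of the genes tested were called at adjusted p below 0.05, 37.7% higher and 35.1% lower in Klk6+ skin. Summed skeletal muscle markers (12 genes) took 0.456% to 0.929% of counts in Klk6+ libraries, against 5.84% to 8.55% in WT libraries.

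Of the 9 genes, 2 were called higher in Klk6+ skin (Itga6 and Col7a1), 4 were called lower (Dst, Col17a1, Plec and Cd151) and 3 were not called (Itgb4, Lama3 and Lamb3), beside the 72.8% called over all genes. Their median log2 fold change was -0.38, against 0.04 over all genes tested. The CPM ranges of the genotypes did not overlap for 3 of the 9 (Dst, Plec and Cd151, all lower in Klk6+), beside 57.0% of all genes tested, 30.1% higher and 27.0% lower. Counted in either direction, the genes were not called or separated more often than genes at large, and they differed among themselves in direction. In whole skin, fewer cells of a type and less RNA per cell cannot be told apart.

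**Figure D1:**
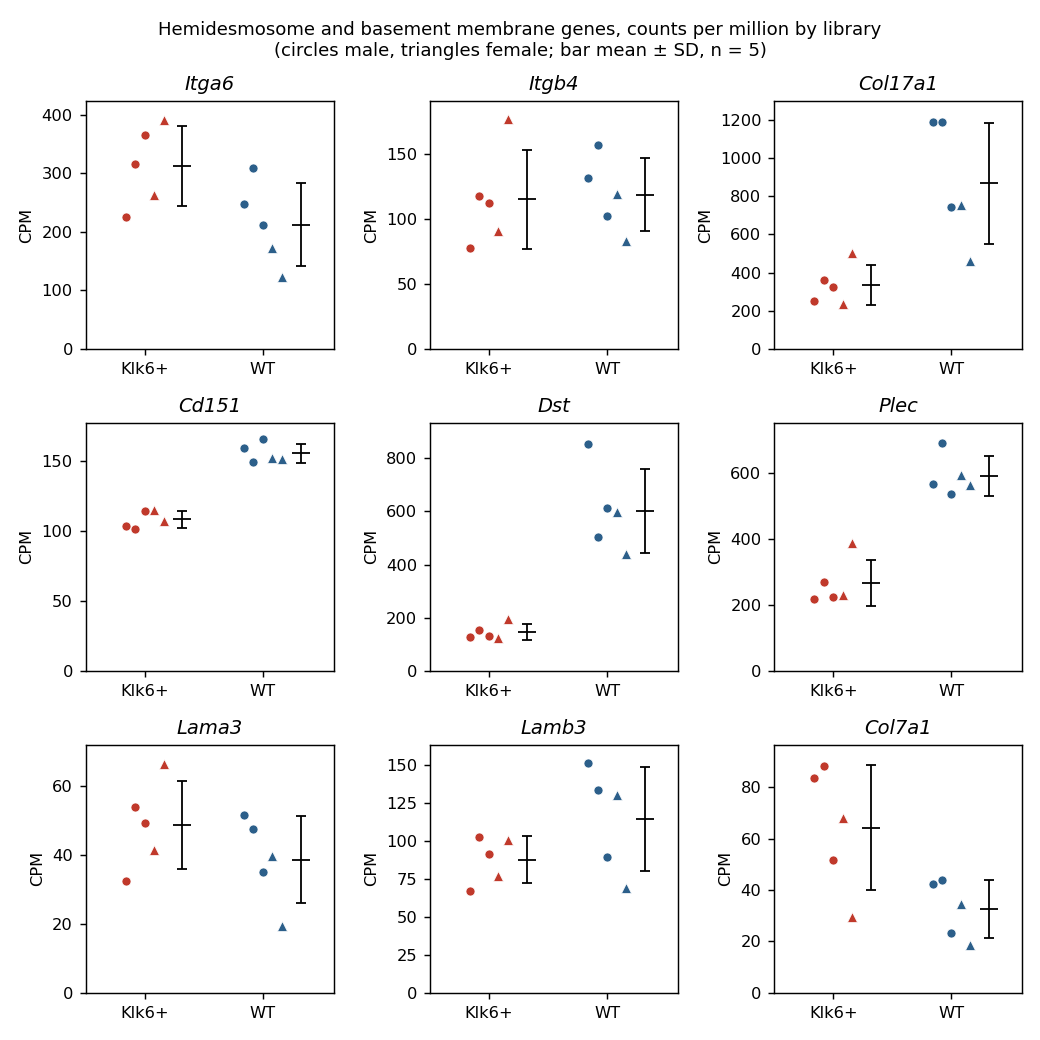
CPM of the 9 genes in each library, Klk6+ (red) left of WT (blue), with males as circles, females as triangles and bars for the mean ± SD of 5 libraries. The genotypes separate fully for Cd151, Dst and Plec, all lower in Klk6+, and overlap for the other 6.

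The bases just before annotated starts are printed for the gene with the largest fall, Dst, at both of its starts in the table, for Col17a1, which also fell, and for Col7a1, which had the largest rise, so that genes that moved in opposite directions can be read side by side. Sequences are from RefSeq on GRCm38.p6, written on the gene's strand. The Dst windows are chr1:34011345-34011594 and chr1:34160010-34160259, both on the plus strand. The Col17a1 window is chr19:47692095-47692292 on the minus strand, with bases in an annotated exon left out, and the Col7a1 window is chr9:108953336-108953585 on the plus strand. Capitals mark GC boxes (GGGCGG) and TATA boxes (TATAAA) on either strand.
Dst, upstream start: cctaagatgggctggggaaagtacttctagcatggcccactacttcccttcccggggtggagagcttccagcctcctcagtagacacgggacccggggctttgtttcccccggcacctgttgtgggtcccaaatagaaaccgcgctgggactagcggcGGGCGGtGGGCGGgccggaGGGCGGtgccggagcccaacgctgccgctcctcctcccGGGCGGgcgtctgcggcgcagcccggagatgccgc
Dst, internal start: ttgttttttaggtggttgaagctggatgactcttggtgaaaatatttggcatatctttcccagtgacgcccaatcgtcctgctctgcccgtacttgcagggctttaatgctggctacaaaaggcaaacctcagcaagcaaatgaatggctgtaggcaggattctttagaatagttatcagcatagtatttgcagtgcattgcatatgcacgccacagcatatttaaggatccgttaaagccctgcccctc
Col17a1: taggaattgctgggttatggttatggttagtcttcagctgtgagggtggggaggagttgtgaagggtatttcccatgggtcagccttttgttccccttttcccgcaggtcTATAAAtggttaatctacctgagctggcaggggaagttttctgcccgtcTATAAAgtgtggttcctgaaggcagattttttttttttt
Col7a1: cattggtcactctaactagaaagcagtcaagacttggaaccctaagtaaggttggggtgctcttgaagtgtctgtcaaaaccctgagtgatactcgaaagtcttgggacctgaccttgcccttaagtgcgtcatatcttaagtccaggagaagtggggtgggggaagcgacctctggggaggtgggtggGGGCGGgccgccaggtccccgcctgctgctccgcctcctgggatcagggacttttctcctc
The upstream Dst window held 4 GC boxes, and the internal one held no GC or TATA box, with a GC content of 68.8% upstream and 45.2% at the internal start. Col17a1 held 2 TATA boxes and Col7a1 held 1 GC box. No printed window held an AP-1 match (TGANTCA, both strands searched, no overlap with the other motifs). Over 32851 RefSeq promoter windows of the full length, 32.7% held a GC box, 12.4% a TATA box and 6.75% an AP-1 match. The table had entries for 5 of the 9 genes. Itga6, Itgb4, Plec and Lama3 had none.

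Inside the cell, the dystonin gene Dst (chr1:33908225-34308661, GRCm38, plus strand) showed the largest fall of the 9. Dst had 128, 153, 131, 124 and 196 CPM in Klk6+ replicates 1 to 5, against 852, 502, 614, 597 and 439 CPM in WT replicates 1 to 5. Every Klk6+ library lay below every WT library. The log2 fold change was -2.03 ± 0.20 (SE, 4.09-fold lower, adjusted p = 1.02e-05). Besides the epithelial form, dystonin has forms in nerve and muscle, and the annotation places starts of the gene at several sites. Transcripts that begin at 34160330, near the internal window printed above, include Dst-217 with 8961 bases in 26 exons, whereas Dst-201 begins upstream and has 23251 bases in 98 exons. The deposited gene-level values do not separate them.

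Plectin (Plec, chr15:76170974-76232574, GRCm38, minus strand), the cytolinker that joins integrin β4 to keratin, fell less than Dst. Plec had 218, 271, 225, 230.2 and 387 CPM in Klk6+ replicates 1 to 5, against 568, 692, 536, 593 and 563 CPM in WT replicates. Klk6+ replicate 5 was the highest of its group and still below every WT library. The log2 fold change was -1.16 ± 0.16 (SE, adjusted p = 9.93e-05). Plectin is also a large part of muscle fibre Z-discs, and all 12 muscle markers fell in Klk6+ skin, with a median log2 fold change of -3.24. Their part in the falls of Dst and Plec was not tested. The 8 Schwann cell markers summed to 178 to 260.2 CPM in Klk6+ libraries and 497 to 800.4 CPM in WT libraries, with 7 called lower and Egr2 higher, and their part in the fall of Dst was not tested either. No marker of either list was at 0 in any library.

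Within each library, Dst counts were 0.586, 0.566, 0.583, 0.541 and 0.506 times the Plec counts in Klk6+ replicates 1 to 5, against 1.5, 0.726, 1.14, 1.01 and 0.779 times in WT replicates. The ratio was lower in all 5 Klk6+ libraries than in any WT library. The difference of mean log2 ratios was -0.84 (two-sided exact permutation test, p = 0.00794, the smallest that 5 against 5 allows; Benjamini-Hochberg adjusted over 4 ratios, 0.00794). Over all genes, 5.98% had a ratio to Plec that was lower without overlap and 56.7% had one that was higher without overlap.

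At the membrane, the 2 integrin genes did not move alike. Integrin α6 (Itga6, chr2:71745616-71858416, GRCm38, plus strand) had 226, 316, 365, 263 and 390 CPM in Klk6+ replicates 1 to 5, against 247, 308, 212, 172 and 123 CPM in WT replicates. The groups overlapped, with Klk6+ replicate 1 below WT replicates 1 and 2 and Klk6+ replicate 4 below WT replicate 2. The log2 fold change was 0.60 ± 0.23 (SE, adjusted p = 0.0349). That call was lost with 3 other scalings, without sex in the model, with muscle markers and Klk6 left out, and without any one of Klk6+ replicates 3, 4 or 5 or WT replicates 1, 3, 4 or 5, with a highest adjusted p of 0.118 without Klk6+ replicate 5 (log2 fold change 0.37). Under the 5 settings with all libraries the log2 fold change stayed at 0.50 to 0.57 and the adjusted p at 0.0502 to 0.0622. Integrin β4 (Itgb4, chr11:115974709-116008412, GRCm38, plus strand) ranged from 78.1 to 177 CPM in Klk6+ libraries and from 83.1 to 157 CPM in WT libraries. It was not called (log2 fold change -0.05 ± 0.24, adjusted p = 0.863), with a 95% interval of -0.58 to 0.48.

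The α6 and β4 chains pair one to one in the receptor, so their ratio within a library was also compared. Itga6 counts were 2.89, 2.69, 3.24, 2.90 and 2.2 times Itgb4 counts in Klk6+ replicates 1 to 5, against 1.87, 1.96, 2.07, 1.43 and 1.47 times in WT replicates. Every Klk6+ library was above every WT library. The difference of mean log2 ratios was 0.66 (exact permutation p = 0.00794, adjusted 0.00794). Over all genes, 13.4% had a ratio to Itgb4 that was higher without overlap. Itga6 counts also belong to other α6 integrins, since α6 pairs with β1 as well. Itgb1, which encodes β1, fell (log2 fold change -0.44 ± 0.12, adjusted p = 0.00777), at 230.0 to 339 CPM in Klk6+ libraries and 314 to 435 CPM in WT libraries.

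Collagen XVII (Col17a1, chr19:47646344-47692094, GRCm38, minus strand) had 253, 362, 326, 235 and 501 CPM in Klk6+ replicates 1 to 5, against 1188, 1188, 742, 755 and 463 CPM in WT replicates. Only Klk6+ replicate 5 and WT replicate 5 crossed, and the other libraries of the 2 genotypes did not overlap. The log2 fold change was -1.33 ± 0.29 (SE, 2.51-fold lower, adjusted p = 0.00195), and it was -1.68 without Klk6+ replicate 5 (adjusted p = 9.70e-05). Against its partner Itgb4, Col17a1 was 3.23, 3.08, 2.90, 2.59 and 2.83 times as high in counts in Klk6+ replicates 1 to 5, and 9.01, 7.55, 7.25, 6.31 and 5.57 times as high in WT replicates. No Klk6+ library reached the lowest WT ratio. The difference of mean log2 ratios was -1.27 (exact permutation p = 0.00794, adjusted 0.00794), beside 15.5% of all genes with a ratio to Itgb4 that was lower without overlap.

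The tetraspanin Cd151 (chr7:141467392-141471473, GRCm38, plus strand), which sits beside laminin-binding integrins in the membrane, had the steadiest values of the 9. Cd151 had 104, 101, 114, 115 and 107 CPM in Klk6+ replicates 1 to 5, against 159, 149, 165, 152 and 151 CPM in WT replicates. The genotypes did not overlap, and the coefficient of variation was 5.69% in Klk6+ and 4.41% in WT libraries. The fall was small beside those of Dst and Plec, at -0.52 ± 0.07 (log2, SE, adjusted p = 9.97e-05).

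Outside the cell, neither measured laminin chain of the 9 was called. The α3 chain gene Lama3 (chr18:12333819-12583013, GRCm38, plus strand) ranged from 32.6 to 66.4 CPM in Klk6+ libraries and from 19.5 to 51.7 CPM in WT libraries (log2 fold change 0.35 ± 0.26, 95% interval -0.23 to 0.94, adjusted p = 0.246). The β3 chain gene Lamb3 (chr1:193207699-193343878, GRCm38, plus strand) ranged from 67.2 to 103 CPM in Klk6+ libraries and from 69.0 to 152 CPM in WT libraries (log2 fold change -0.38 ± 0.21, 95% interval -0.86 to 0.10, adjusted p = 0.134). The genotypes overlapped for both genes. Without WT replicate 5, which had the lowest Lamb3 of its group, Lamb3 was called lower (log2 fold change -0.54, adjusted p = 0.0277).

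The balance of these chains within a library differed between genotypes. Lama3 counts were 0.485, 0.526, 0.539, 0.542 and 0.660 times Lamb3 counts in Klk6+ replicates 1 to 5, against 0.341, 0.356, 0.394, 0.305 and 0.283 times in WT replicates. The ratio was higher in every Klk6+ library than in any WT library. The difference of mean log2 ratios was 0.71 (exact permutation p = 0.00794, adjusted 0.00794). Over all genes, 24.7% had a ratio to Lamb3 that was higher without overlap.

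**Figure D2:**
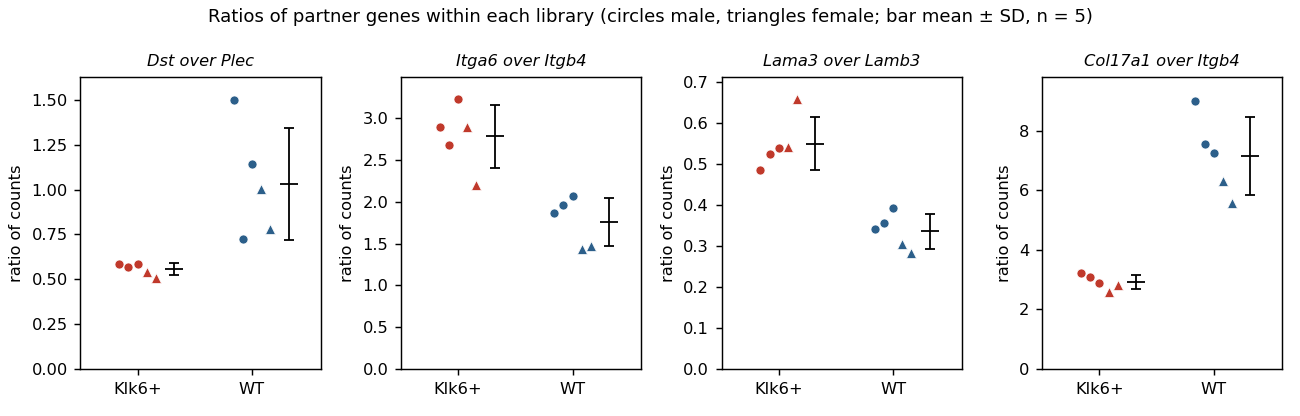
Ratio of counts of partner genes within each library, Klk6+ (red) left of WT (blue), with males as circles, females as triangles and bars for the mean ± SD of 5 libraries. In each of the 4 panels the genotypes separate fully, with Dst over Plec and Col17a1 over Itgb4 lower in Klk6+ and the other 2 ratios higher.

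The anchoring fibril collagen gene Col7a1 (chr9:108953586-108984875, GRCm38, plus strand), which both keratinocytes and fibroblasts make, had the largest rise. Col7a1 had 83.7, 88.4, 51.5, 68.1 and 29.4 CPM in Klk6+ replicates 1 to 5, against 42.2, 44.0, 23.3, 34.7 and 18.7 CPM in WT replicates. Klk6+ replicate 5 fell inside the WT range, and the other 4 Klk6+ libraries were above every WT library. The log2 fold change was 0.97 ± 0.29 (SE, adjusted p = 0.0113), and it was 0.71 without Klk6+ replicate 4 (adjusted p = 0.0546), which ended the call. All 6 fibroblast markers were called lower in Klk6+ skin, 3 of them without overlap of the genotypes. They summed to 4445 to 9293 CPM in Klk6+ libraries and 11489 to 40764 CPM in WT libraries. Within females only Dcn was called lower, and the other fibroblast markers were not called (edgeR adjusted p 0.0538 to 0.353). The part of these 6 markers in the Col7a1 values was not tested.

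**Figure D3:**
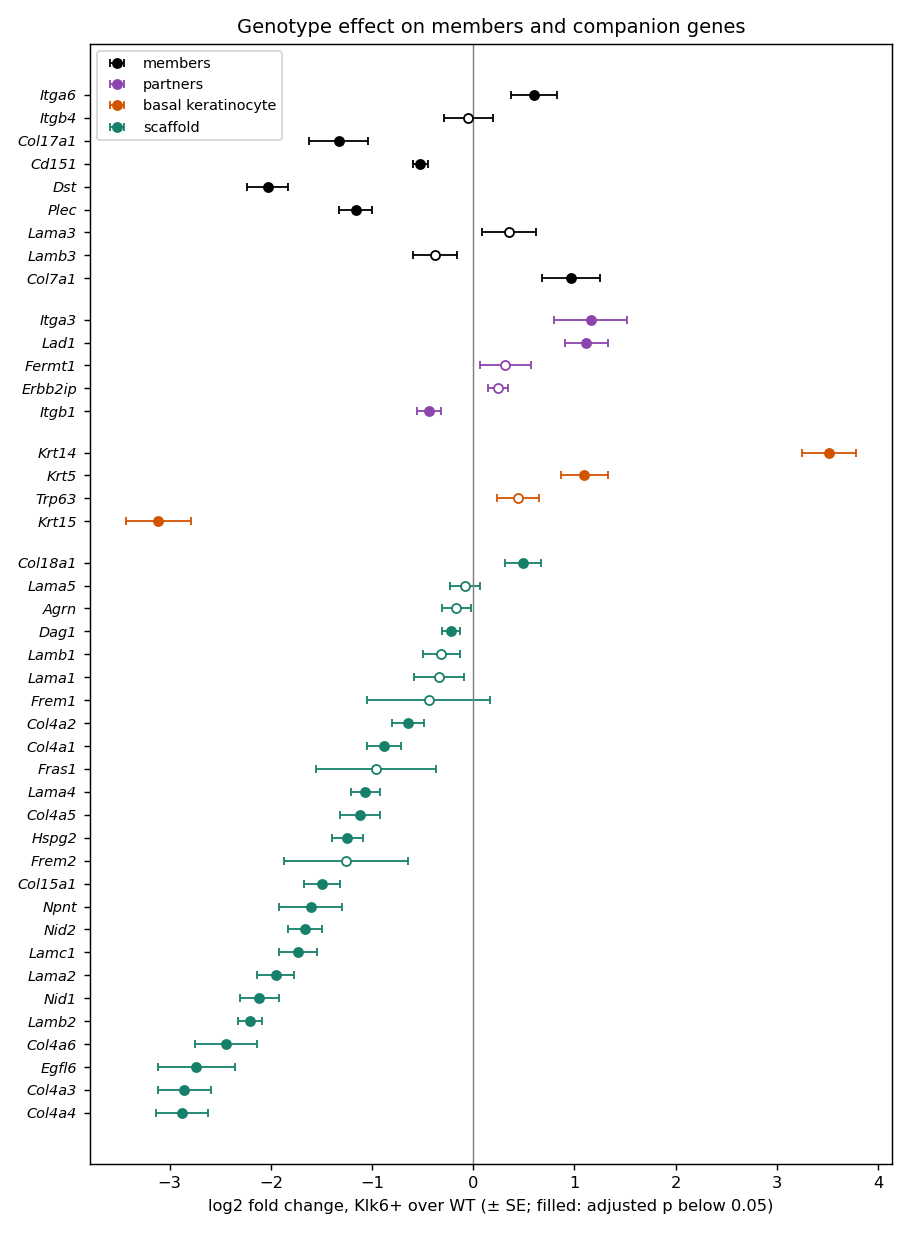
Log2 fold change of Klk6+ over WT with its SE for the 9 genes and for companion genes, with filled points where the adjusted p was below 0.05. Dst lies lowest of the 9 at -2.03 and Col7a1 highest at 0.97, while the scaffold genes lie mostly left of 0.

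FPKM divides a gene's fragments by transcript length and library size. It lets levels of different genes be set side by side as far as that length fits the transcripts present. The annotation holds Lama3 transcripts of 10548 and 5551 bases. Which of them the reads came from was not tested, so the place of Lama3 in the order is uncertain. In Klk6+ skin the order by mean FPKM was Cd151 (58.2 ± 4.75), Col17a1 (54.5 ± 17.6), Itga6 (46.5 ± 10.1), Lamb3 (19.7 ± 3.19), Itgb4 (17.1 ± 5.86), Plec (15.7 ± 4.35), Dst (12.1 ± 2.39), Col7a1 (6.15 ± 2.26) and Lama3 (4.16 ± 1.10; SD, n = 5 each). In WT skin it was Col17a1 (139.6 ± 50.3), Cd151 (84.2 ± 4.92), Dst (49.0 ± 18), Plec (34.4 ± 2.93), Itga6 (31.3 ± 9.97), Lamb3 (25.6 ± 7.82), Itgb4 (17.5 ± 3.99), Lama3 (3.28 ± 1.07) and Col7a1 (3.10 ± 1.06). Dst stood seventh in Klk6+ and the third in WT skin. Neighbours in the order overlapped in range except between Itga6 and Lamb3 and between Dst and Col7a1 in Klk6+ skin, and between Itgb4 and Lama3 in WT skin.

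Count and FPKM together give a length behind each FPKM (count divided by FPKM and library total, corrected by a factor per library). The factor evens out the libraries but does not set the absolute scale. Col17a1 averaged 6172 bases in Klk6+ libraries, above its longest annotated transcript of 5588 bases. These lengths are therefore relative values, to be compared between libraries of a gene. For Dst this length was 11994, 11794, 12616, 11860 and 12493 bases in Klk6+ replicates 1 to 5, against 11136, 13075, 12778, 12004 and 13704 bases in WT replicates. The genotypes overlapped, and the coefficient of variation over 10 libraries was 5.98%, larger than in 98.4% of 10808 genes. The other 8 genes had 0.047% to 0.918%. Cd151 was at 1867 ± 9.29 bases in Klk6+ and 1839 ± 7.96 bases in WT libraries (SD, n = 5 each), without overlap, as 5.69% of the 10808 genes were.

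**Figure D4:**
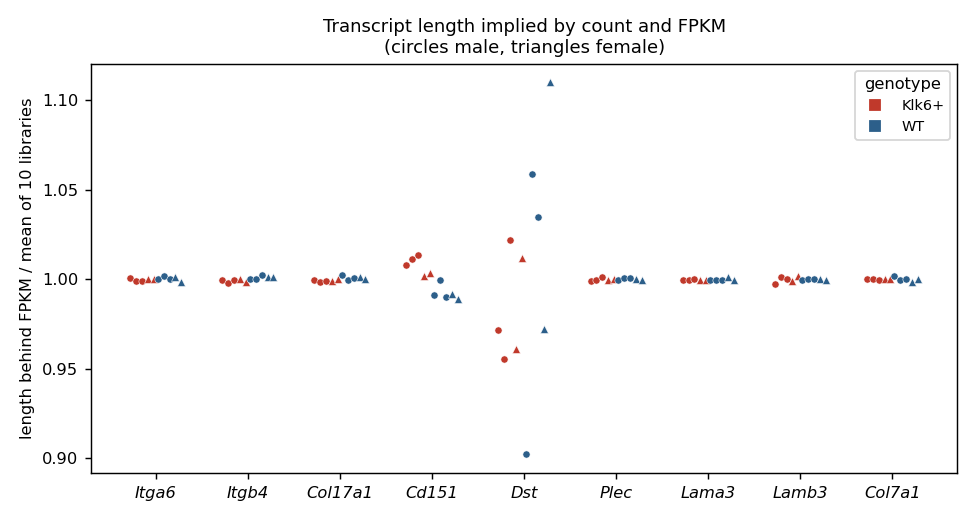
Length behind the FPKM of each gene in each library, divided by the gene's mean over 10 libraries, Klk6+ (red) left of WT (blue), males as circles and females as triangles. Dst spreads most widely, with both genotypes mixed, and Cd151 shows a small separation.

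Because the junctions belong to basal keratinocytes, each gene was also read per 1000 Krt5 counts of the same library. Krt5 itself rose (log2 fold change 1.09 ± 0.23, adjusted p = 0.00165). Col17a1 averaged 63.7 ± 9.74 per 1000 Krt5 counts in Klk6+ and 344 ± 25.0 in WT libraries (SD, n = 5 each), and Itgb4 averaged 21.9 ± 4.09 in Klk6+ and 49.7 ± 11.1 in WT libraries. Dst averaged 28.4 ± 3.62 in Klk6+ and 254 ± 69.4 in WT libraries. On this scale 8 of the 9 genes were lower in Klk6+ without overlap, beside 46.8% of all genes lower and 4.35% higher. Col7a1 was the exception, at 13.1 ± 6.06 per 1000 Krt5 counts in Klk6+ and 13.2 ± 2.69 in WT libraries (SD, n = 5 each). Itga6, called higher in CPM, was thus lower per Krt5, at 60.1 ± 6.24 in Klk6+ and 85.5 ± 9.80 in WT libraries. Per Krt14, another basal keratin, all 9 were lower without overlap, beside 94.3% of all genes lower and 0.882% higher, and Krt14 itself rose (log2 fold change 3.52 ± 0.27, adjusted p = 1.83e-06). Of the other basal markers, Krt15, a keratin of basal and hair follicle bulge cells, fell (log2 fold change -3.11 ± 0.32, adjusted p = 1.17e-05), and Trp63, which encodes the master regulator p63, was not called (0.44 ± 0.20, adjusted p = 0.0728). Trp63 was called higher by limma-voom and by limma on FPKM with a pseudocount of 1 or 0.1 (adjusted p 0.0457 to 0.0475), without Klk6+ replicate 3 or WT replicate 2 (0.54 and 0.57), and within females (0.98 ± 0.25, adjusted p = 0.00781).

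**Figure D5:**
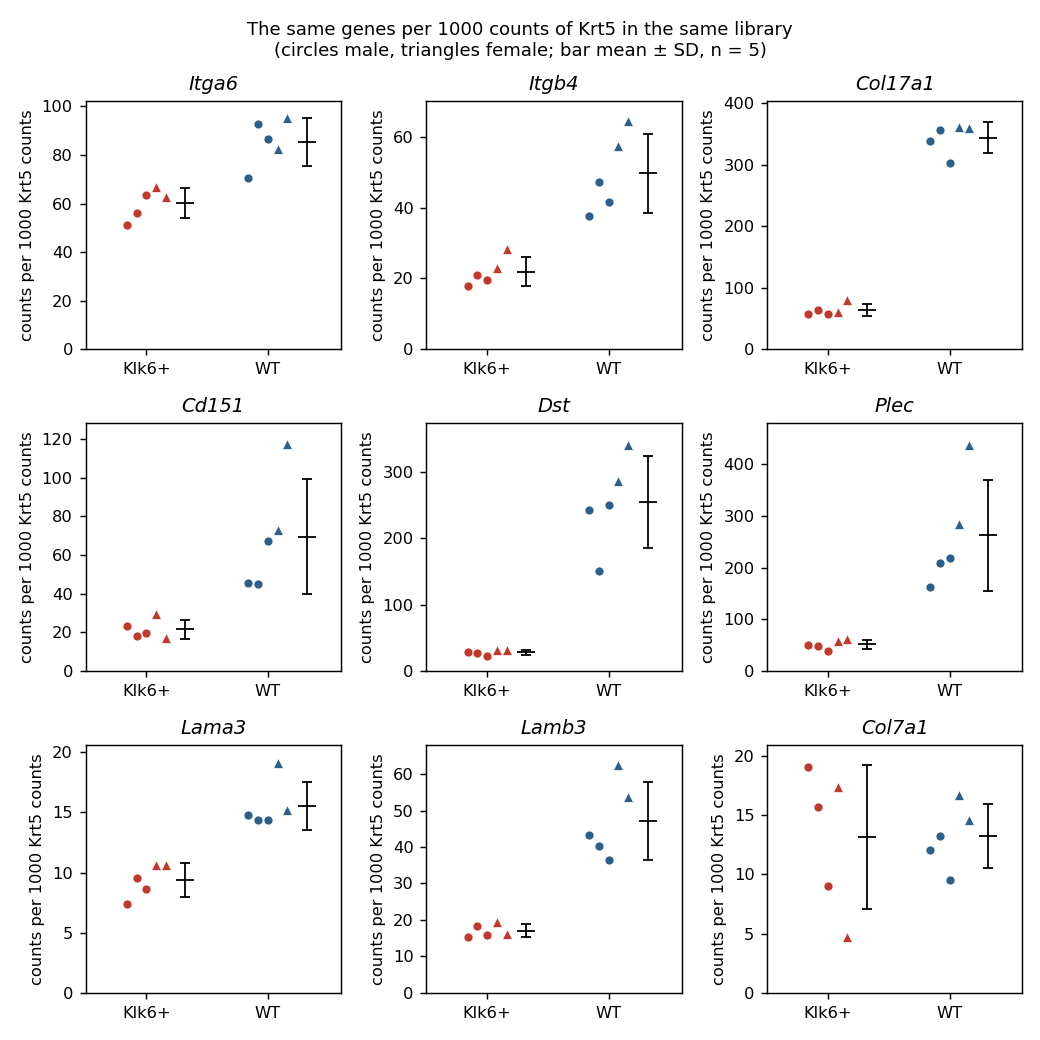
The 9 genes per 1000 Krt5 counts in each library, Klk6+ (red) left of WT (blue), males as circles, females as triangles, bars for the mean ± SD of 5 libraries. All panels but Col7a1 separate fully, with Klk6+ lower.

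Single libraries carried part of the spread. Klk6+ replicate 5 was the highest of its group for 6 of the 9 genes (Col17a1, Dst, Plec, Itga6, Itgb4 and Lama3) and the lowest for Col7a1. WT replicate 5 was the lowest of its group for 7 of the 9 and for all 4 basal markers, and Klk6+ replicate 1 was the lowest for 5.

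Within males 64.4% of all genes were called and within females 59.6%. In males, 4 of the 9 were called lower: Col17a1 (-1.73 ± 0.33, log2 fold change and SE), Dst (-2.25 ± 0.25), Plec (-1.33 ± 0.20) and Cd151 (-0.57 ± 0.09), with adjusted p between 7.24e-05 and 0.00148, beside 31.0% of all genes lower. Col7a1 was called higher in males (1.03 ± 0.39, adjusted p = 0.0412), beside 33.4% of all genes, and lost that call with library size scaling (adjusted p = 0.0584) and without any one of Klk6+ replicates 1 and 2 or WT replicates 1, 2 and 3 (0.78 to 1.17, adjusted p 0.0509 to 0.118). In females, Dst (-1.69 ± 0.30), Plec (-0.91 ± 0.24) and Cd151 (-0.45 ± 0.11) were called lower, beside 28.4%, and Itga6 was called higher (1.15 ± 0.30, adjusted p = 0.00856), beside 31.2%. The Itga6 call in females was lost without Klk6+ replicate 5 (0.77, adjusted p = 0.0763) or WT replicate 5 (0.90, adjusted p = 0.0904), and Plec in females was at -1.40 without Klk6+ replicate 5. Col17a1 in females was at -0.73 ± 0.39 (adjusted p = 0.137), ran from -1.44 to -0.34 when single libraries were left out and was called without Klk6+ replicate 5 (adjusted p = 0.0169), and Itga6 in males at 0.24 ± 0.24 (adjusted p = 0.393). Whether the effects differed was tested as an interaction, and none of the 9 was called. The smallest p was that of Itga6, with a difference of female minus male log2 fold changes of 0.91 ± 0.38 (edgeR adjusted p = 0.499), and Col17a1 was at 1.0 ± 0.50 (adjusted p = 0.583). Over all genes, 0 were called by edgeR, 9.49% had an unadjusted p below 0.05, and DESeq2 called 261.

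Genes that work beside the 9 were read from 3 lists. Their counts stand beside 37.7% of all genes called higher, 35.1% called lower and 72.8% called in either direction. Of 5 anchoring partners, 2 rose, 1 fell and 2 were not called, with a median log2 fold change of 0.32, so the number called was not above that background. Lad1, which encodes ladinin of the anchoring filament zone, rose without overlap, at 212 to 311 CPM in Klk6+ libraries and 72.1 to 183 CPM in WT libraries (log2 fold change 1.12 ± 0.21, adjusted p = 0.00074). Itga3, the α3 integrin chain, rose by 1.16 ± 0.36 (adjusted p = 0.0146). Fermt1 (kindlin) and Erbb2ip (erbin) were not called.

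Of 25 other basement membrane scaffold genes, 17 fell, 1 rose and 7 were not called, with a median log2 fold change of -1.24 against 0.04 over all genes. The 18 called of 25 are close to the 72.8% of all genes called, while the 17 that fell stand beside 35.1% of all genes called lower. Lamb2, a laminin chain of vessels, nerve and muscle, fell without overlap, at 48.7 to 69.2 CPM in Klk6+ libraries and 202 to 281 CPM in WT libraries (-2.21 ± 0.12, adjusted p = 3.87e-07). Col4a3 (-2.86), Col4a4 (-2.88) and Lama2 (-1.95), which encode collagen IV chains and the laminin chain of muscle and nerve, also fell without overlap. Col4a3 and Col4a4 were expressed at low levels, and on the log2(FPKM + 1) scale, which understates changes of low genes, they were at -0.81 and -1.06 and stayed called. Muscle, Schwann cell and endothelial markers fell with them, and all 8 endothelial markers were called lower, summing to 179.5 to 258 CPM in Klk6+ libraries and 326 to 476 CPM in WT libraries. Their part in these falls was not tested. Col18a1 was the 1 gene that rose (0.49, adjusted p = 0.0286), and lost its call with upper quartile scaling and without any one library other than Klk6+ replicate 1 or WT replicate 2 (log2 fold change 0.40 to 0.50 without those 8).

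Of 15 tested enzymes that mature or shed basement membrane proteins, 4 rose, 9 fell and 2 were not called, with a median log2 fold change of -0.61, beside 37.7% of all genes called higher and 35.1% called lower. P4hb, a subunit of the collagen prolyl hydroxylase, rose without overlap, at 1212 to 1767 CPM in Klk6+ libraries and 511 to 620 CPM in WT libraries (log2 fold change 1.45, adjusted p = 3.02e-06), while its partner chains P4ha1 (-1.13) and P4ha2 (-1.06) fell. Furin, a proprotein convertase, rose by 1.09 on the log2 scale. Adam17 and Adam10, sheddases of membrane proteins including collagen XVII, rose by 0.37 and 0.26 on the log2 scale, whereas Adam9, which encodes another sheddase of collagen XVII, fell by 0.61 (adjusted p = 0.00255). Adam10 lost its call under 4 alternatives (0.16 to 0.22) and without any one library other than Klk6+ replicate 1 or WT replicates 3 and 5 (0.18 to 0.24). Bmp1, which cleaves procollagen VII and laminin chains, fell by 0.67 on the log2 scale, and the gelatinase gene Mmp2 fell by 1.20.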

How the data were processed

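Skin mRNA of 10 mice (5 Klk6+, 5 WT) was sequenced as single-end reads from polyA-selected libraries that do not mark strand, per the labels' protocols. The authors deposited, per mouse and gene, a raw read count and an FPKM value. The submitters' processing notes name TopHat2, SAMtools, HTSeq, Cufflinks 2.2.1 and the builds GRCm38 and mm10, without their roles.

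Deposited counts were tested in R 4.3.3 with edgeR 4.0.16 (minimum count 10, TMM scaling, quasi-likelihood tests, sex as covariate, or 4 genotype-by-sex means for effects within sex and the interaction), with Benjamini-Hochberg adjustment over 14861 genes. The biological coefficient of variation was 0.244. Each edgeR SE is the absolute log2 fold change divided by the square root of the quasi-likelihood F statistic. Intervals are 95% and used the total degrees of freedom of that test (10.0 for the genotype effect). These include prior degrees of freedom estimated over genes. Ratios used a pseudocount of 0.5 and an exact permutation test that did not take sex into account. In the alternatives run with all libraries, the adjusted permutation p of each ratio reached up to 0.0167. Scripts were tested on simulated data. Alternatives were DESeq2 1.42.0, limma 3.58.1 (voom, and log2 of FPKM plus 1 or 0.1), other scalings and filters, and each library left out. Positions are from GENCODE on GRCm38.

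The 9 genes and the lists were chosen with earlier results of these data known. From each list, up to 4 called genes a direction were named by smallest p, and Fermt1, Erbb2ip and Adam9 were named after their values were seen. A gene and a ratio that were planned are not reported here. On the same strand, Plec shares 1.13% of its exon bases with Parp10 and Col7a1 shares 0.35% with Mir711. Itgb4, Cd151 and Lama3 share 7.66%, 7.04% and 1.83% with antisense genes. Dst shares 2.52% with antisense Gm26788 and 1.11% with antisense A930005N03Rik. Reads in these stretches cannot be told apart. Replicates of a genotype were separate mice, and no pair was alike within sampling noise (lowest chi-square per degree of freedom 38.9).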

Additional observations from a re-analysis of the deposited data

How the results depend on the processing

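In the genotype comparison, direction and call held under every alternative run for the 4 genes called lower (Dst, Plec, Col17a1 and Cd151) and for all 4 ratios. Over every result recomputed, counts and effects within sex included, 1134 values stayed the same in direction and call or within the spread allowed for a count, 41 lost a call, 9 gained one, 17 turned sign and 23 counts moved. The number of the 9 genes called higher was 1 instead of 2 with RLE, upper quartile or library size scaling, without sex in the model, and with muscle markers and Klk6 left out (an alternative added after seeing the data), since Itga6 lost its call. It ran from 0 (without Klk6+ replicate 4) to 2 over single libraries left out. Within males it was 0 instead of 1 with library size scaling (Col7a1) and ran from 0 to 1 without single libraries. Within females it ran from 0 (without WT replicate 5, when Itga6 lost its call) to 2 (without WT replicate 4). Genes called for the interaction numbered 261 by DESeq2 and 0 to 4 without single libraries. The cause of these shifts was not tested.

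Signs turned only for effects that were not called. Itgb4 ran from -0.35 to 0.088 (log2) without single libraries. Lama3 within males was -0.018 with RLE scaling, -0.018 by DESeq2 and -0.069 with library size scaling, and ran from -0.13 to 0.22 without single libraries. Within females Itgb4 ran from -0.23 to 0.74 and Lamb3 from -0.58 to 0.36. For the interaction, Col7a1 ran from -0.90 to 0.35, Plec from -0.0023 to 0.74 and Lamb3 from -0.053 to 0.88. No paired analysis was possible because replicate numbers were given in accession order within a genotype and the labels pair no mice. With 5 mice a genotype and 2 females in each, the effects within females are the least certain.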

Other observations

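By the profile of log2 CPM centred on each gene's mean over 10 libraries, the genes most like Col7a1 were Acot2, Tecr and Megf6, with root mean square differences of 0.21, 0.24 and 0.25. The nearest of the other 8 anchoring genes to Col7a1 was Itga6, at 0.64 and rank 4465. For Dst the nearest genes were Cd3e, Ptpn21 and Sult5a1, with differences of 0.17, 0.19 and 0.20, and the nearest of the anchoring genes was Col17a1, at 0.46 and rank 617.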
